A study of Mus musculus and Rattus norvegicus with 32 samples.

Results

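The 6 genes described here are Bc1, Bace2, Prune2, Mal, Mpnd and Fig4, of 55487 genes listed in each of the mouse heart tables. They were chosen by their read counts at 1 month of age, which separated hearts labelled Mettl5-KO from control hearts, so their values at that age describe the choice, and the other tables were used to ask whether the difference recurred. All 6 are listed in the mouse tables and 5 in the rat table of 32883 genes, where Bc1 has no row. Each passed the filter on low counts in every table that lists it.

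METTL5 is a methyltransferase that places a methyl group on an adenosine of the small-subunit ribosomal RNA, and the study asked what its loss and gain do in the heart. RNA was sequenced in 32 libraries of 8 groups, with 4 libraries in each group. The mice were C57BL/6. At an age of 1 month, heart RNA came from Ctrl mice and from Mettl5-KO mice, the latter a knockout of the whole animal. At 3 months it came from Ctrl mice and from Mettl5-cKO mice, and further from Ctrl and Mettl5-cKO mice, likewise labelled 3 months old, at 4 weeks after transverse aortic constriction (TAC), an operation that narrows the aorta and puts the left ventricle under pressure overload. In Mettl5-cKO mice an αMHC-Cre (Myh6-Cre) transgene acts on floxed exons 2 to 4 of Mettl5 in cardiomyocytes, so other heart cells keep the gene. Controls were littermates, and whether they carried the Cre transgene is not given in the sources used here. The cells were neonatal rat ventricular cardiomyocytes (NRVM) of Sprague Dawley rats at postnatal day 2. They were preplated to remove fibroblasts, transduced with an adenovirus for GFP (AdGFP) or human METTL5 (AdMettl5), and all were treated with 20 μM phenylephrine (PE), a hypertrophic agonist, for 24 h. No unstimulated NRVM and no sham-operated hearts were analysed here.

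The 6 genes belong to no single pathway. Bc1 is a small cytoplasmic RNA of rodents, made by RNA polymerase III and best known from neurons, where it represses the initiation of translation by binding the helicase eIF4A and the poly(A)-binding protein. Bace2 encodes an aspartyl protease related to the β-secretase Bace1, Mal a proteolipid of myelin and of membrane sorting, and Fig4 a phosphoinositide phosphatase that works in a complex with the kinase PIKfyve and the scaffold VAC14. Prune2 encodes a large protein with a BCH domain, and Mpnd a protein with the MPN domain of a family that includes deubiquitinating enzymes.

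Bc1 is the 1 member that encodes no protein, and its RNA is short enough to be read whole. It lies on the plus strand of chromosome 7 (GRCm38, chr7:144914470-144914637), is annotated as a single-exon lincRNA, and is 168 bases long. The sequence is shown because its composition bears on what a read count of it can mean. The capitals mark the longest run of A, 23 bases from position 77 to position 99, which divides the 5′ domain from the unique 3′ end.

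Bc1: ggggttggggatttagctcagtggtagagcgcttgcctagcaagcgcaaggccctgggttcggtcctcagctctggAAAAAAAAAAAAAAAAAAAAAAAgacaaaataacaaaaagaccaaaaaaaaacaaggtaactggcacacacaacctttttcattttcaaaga

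The 5′ domain is the founder of the ID family of repeats. Of the 138 windows of 31 bases in Bc1, 58 occurred in an annotated transcript of another gene on either strand, all between positions 1 and 95, and 19 other genes held at least 1 of them. A read that lies within shared sequence can belong to another transcript. How far this affects the count of Bc1 was not measured. How the RNA was selected for its libraries is not given in the sources used here.

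The other members are protein-coding genes on separate chromosomes of GRCm38. Bace2 spans 97356742 to 97442936 on the plus strand of chromosome 16, Prune2 16956118 to 17223932 on the plus strand of chromosome 19, and Mpnd 56005711 to 56016790 on the plus strand of chromosome 17. Mal spans 127633226 to 127656695 on the minus strand of chromosome 2, which also holds Mettl5, and Fig4 spans 41188172 to 41303260 on the minus strand of chromosome 10. Merged exons covered 20297 bases in Prune2, 7887 in Bace2, 3282 in Fig4, 2778 in Mal and 2305 in Mpnd. The span of Mpnd overlaps Sh3gl1 on the opposite strand by 41 bases, all exonic, and the pseudogene Gm16276 by 262 bases outside its exons. Bace2 holds the pseudogene Gm49681, Prune2 the small RNA genes Gm27970 and Gm27796, and Fig4 the snoRNA gene Gm25526, none of them touching an exon of the member.

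Total counts ranged from 19899033 to 21804907 over the 24 heart libraries and from 14324700 to 18085339 over the 8 NRVM libraries. Values below are normalized counts (CPM, counts per unit of TMM-scaled library size), given library by library. Their order follows the library numbers, which name a library and were not used as pairs in the fits reported. The labels and the target were checked first. Mettl5 had 4.51, 5.94, 5.37 and 4.66 CPM in 1-month Ctrl hearts and 5.27, 5.28, 6.62 and 6.71 in Mettl5-KO hearts. It ranged from 6.87 to 8.12 in 3-month Ctrl and 5.61 to 7.28 in Mettl5-cKO hearts, and from 5.62 to 7.14 in TAC Ctrl and 5.61 to 7.32 in TAC Mettl5-cKO hearts. Its adjusted p was 0.973, 0.884 and 0.874 (Benjamini-Hochberg, over all genes of the edgeR quasi-likelihood test). This gene-level count, which includes exons outside the floxed part and overlaps Ssb and Gm13625, did not separate the genotypes. The groups were taken from the labels, and single exons were not analysed here. In NRVM, rat Mettl5 was higher with AdMettl5 (log2 fold change 0.32, standard error (SE) 0.0723, adjusted p = 0.00295, edgeR), as were 27.1% of all genes. The virus carries human METTL5, and whether its reads were counted in the rat row was not tested. The 7 cardiomyocyte markers summed to at least 19615 CPM in every heart library and to at least 7113 CPM in every NRVM library, and none of them was at 0.

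At 1 month, the values that chose the members were as follows, and no test is drawn from them. Bc1 had 11.9, 8.93, 12.1 and 10.4 CPM in Ctrl hearts and 4.76, 4.58, 6.05 and 5.64 in hearts labelled Mettl5-KO, log2 fold change -1.04 (SE 0.143). Bace2 had 4.66, 8.22, 7.79 and 7.75 CPM against 3.30, 2.19, 3.75 and 3.11, log2 fold change -1.20 (SE 0.223). For both RNAs every Mettl5-KO library lay below every Ctrl library, although the lowest Ctrl library of Bace2 stood apart from the other 3. Prune2 had 48.7, 45.1, 46.9 and 60.8 CPM against 27.7, 30.95, 29.3 and 22.8, log2 fold change -0.86 (SE 0.133). Mal, the least abundant member in these hearts by CPM, had 4.82, 4.37, 4.53 and 4.03 CPM against 1.97, 2.19, 2.83 and 2.92, log2 fold change -0.84 (SE 0.166). The groups did not overlap for either gene. Mpnd had 20.1, 19.3, 20.6 and 23.5 CPM against 15.6, 15.6, 15.3 and 14.6, log2 fold change -0.45 (SE 0.0915). Fig4 was the 1 member with more RNA in the Mettl5-KO hearts, with 13.99, 14.8, 11.7 and 14.8 CPM against 19.7, 18.4, 19.2 and 19.1, log2 fold change 0.47 (SE 0.0990).

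The groups of all 6 genes were apart, as were those of 3.01% of the 16329 genes tested at 1 month, and this is what the choice asked for. Of all genes tested, 0.00612% had an adjusted p under 0.05 (edgeR). The p-values of the 6 genes at this age come from the values that chose them and are not given. The summed CPM of 4 atrial cardiomyocyte markers ran along with the groups, from 123 to 724 in Ctrl and from 61.1 to 94.6 in Mettl5-KO hearts. Only 2 of the 4 could be tested, Nppa (log2 fold change -2.05, groups apart) and Myl4 (0.067, groups overlapping), and neither passed. The paper uses Nppa as a hypertrophy marker, so the sum is not particular to atrial cells. The part of these markers in the values of the 6 genes was not tested. In a bulk heart sample, fewer cells of a type and less RNA per cell cannot be told apart.

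**Figure D1:**
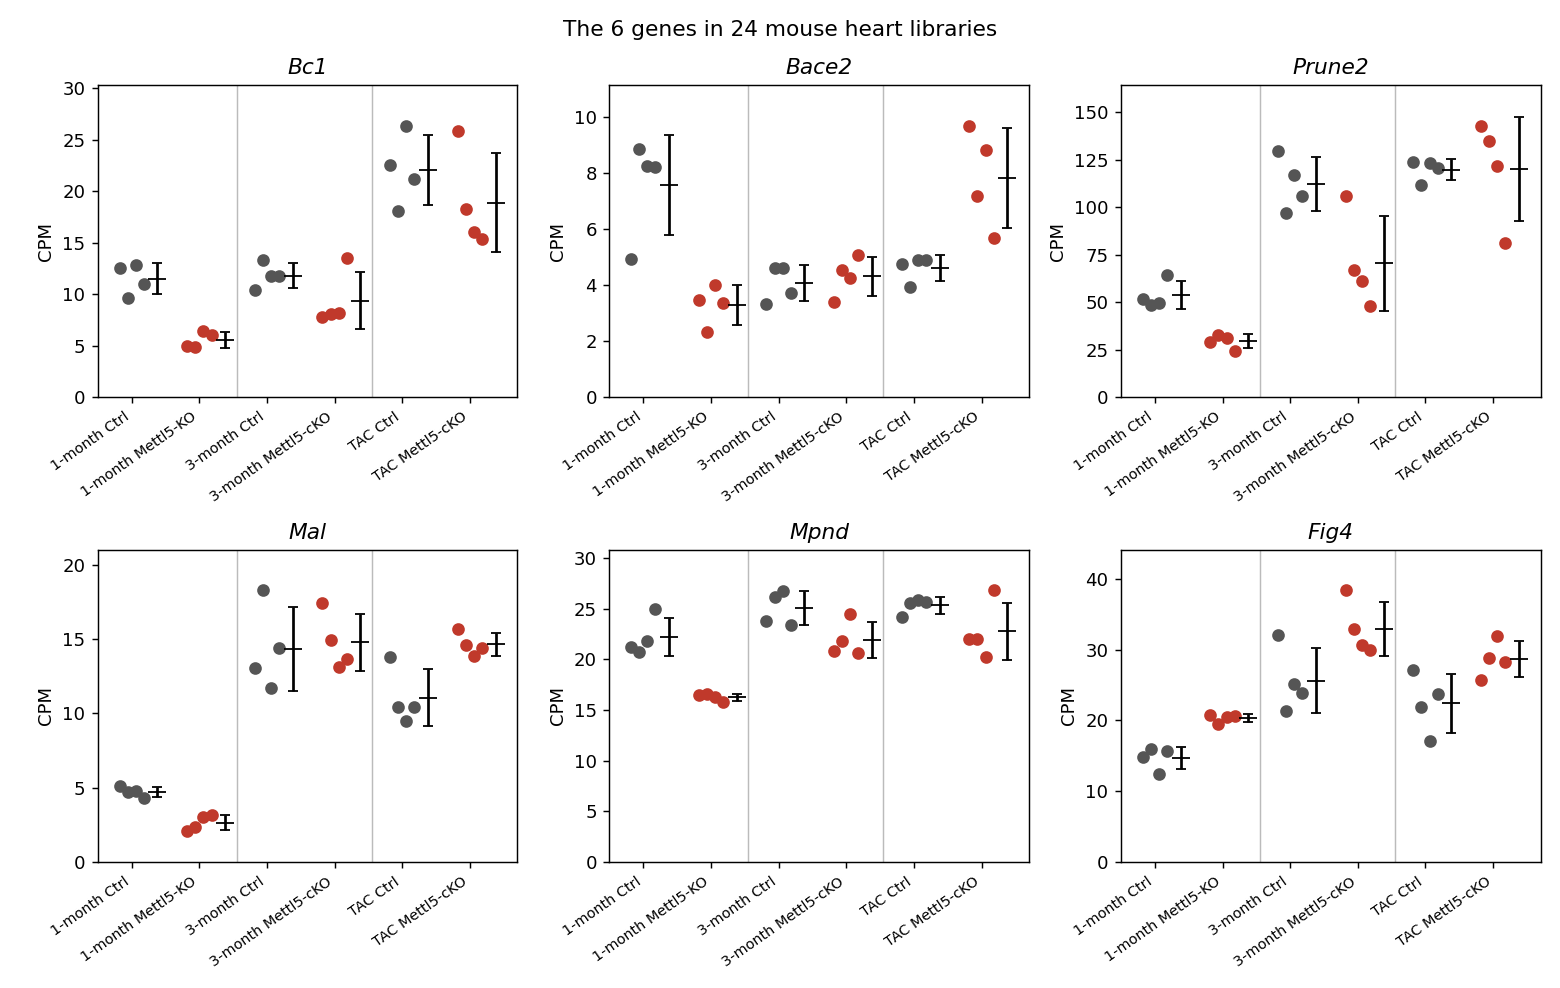
CPM of each gene (vertical axis, linear, from 0) in the 24 mouse heart libraries by group (horizontal axis), scaled together over all 24 libraries, so that values differ slightly from those scaled table by table. Points are libraries (grey Ctrl, red Mettl5-KO or Mettl5-cKO), and the dash and bar beside them are the mean and SD of 4 libraries. Mal is lower in both 1-month groups than in any older group, Bc1 is highest after TAC, and the red points of Bace2 lie below the grey ones at 1 month and above them after TAC. Age and TAC cannot be told apart from the table of the libraries.

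At 3 months, in unstressed hearts labelled Mettl5-cKO against Ctrl, none of the 6 genes passed the test, against 0.0732% of the 16391 genes tested (12 genes). At an unadjusted p under 0.05 (edgeR) there were 2 of the 6, Prune2 and Fig4, and 1155 of all 16391 genes. DESeq2 called none of the 6. The groups overlapped for all 6 genes, whereas 4.23% of all genes had groups that did not. The median log2 fold change was -0.071 over the 6 genes and 0.000709 over all genes tested.

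Prune2 and Fig4 came closest to the pattern of 1 month. Prune2 had 134, 101, 120 and 109 CPM in 3-month Ctrl hearts and 109, 69.5, 62.9 and 49.8 in hearts labelled Mettl5-cKO. A single Mettl5-cKO library lay within the range of the controls, and the other 3 lay below it. The log2 fold change was -0.67 (SE 0.215, 95% interval -1.15 to -0.19), with an adjusted p of 0.507 (edgeR quasi-likelihood test, Benjamini-Hochberg) and p = 0.0857 in the exact two-sided permutation test. Without Mettl5-cKO library 1 the log2 fold change was -0.94 and the adjusted p 0.123 (edgeR). Without Mettl5-cKO library 4 they were -0.53 and 0.558 (edgeR). Fig4 had 33.2, 22.2, 25.9 and 24.5 CPM in Ctrl and 39.7, 34.4, 31.4 and 31.2 in Mettl5-cKO hearts. A single Ctrl library reached into the range of the Mettl5-cKO libraries. Its log2 fold change was 0.37 (SE 0.136, 95% interval 0.06 to 0.67, adjusted p = 0.601, edgeR).

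The remaining 4 genes showed smaller differences. Bc1 had 10.8, 13.9, 12.1 and 12.1 CPM in Ctrl and 8.05, 8.43, 8.36 and 14.1 in Mettl5-cKO hearts, log2 fold change -0.33 (SE 0.186, adjusted p = 0.837, edgeR). All but 1 of the Mettl5-cKO libraries lay below the controls, and library 4 lay above them. Without library 4 the log2 fold change was -0.56, and without Mettl5-cKO library 1 it was -0.26. Mpnd, with 24.1 to 27.6 CPM in Ctrl and 21.5 to 25.1 in Mettl5-cKO hearts, had log2 fold change -0.19 (SE 0.0906, adjusted p = 0.739, edgeR). Bace2 had 3.45, 4.82, 4.76 and 3.82 CPM in Ctrl and 3.53, 4.73, 4.36 and 5.28 in Mettl5-cKO hearts, with a 95% interval of -0.29 to 0.46 for the log2 fold change. Mal had 13.5, 19.1, 12.1 and 14.8 CPM against 18.1, 15.6, 13.5 and 14.3, with an interval of -0.30 to 0.39. No gene of the marker lists passed the edgeR test at 3 months. Summed levels nevertheless did not overlap for the cardiomyocyte list (31136 to 34923 CPM in Mettl5-cKO against 35405 to 38739 in Ctrl). Nor did they for the atrial list (204 to 339 against 94.8 to 157) or the macrophage list (81.1 to 107 against 63.7 to 80.6). The tested atrial genes were Nppa (log2 fold change 1.10, adjusted p = 0.159, edgeR, groups apart) and Myl4 (0.16, groups overlapping). The paper, which used DESeq2, lists Nppa among the genes changed at this age. The part of these markers in the values of the 6 genes was not tested.

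**Figure D2:**
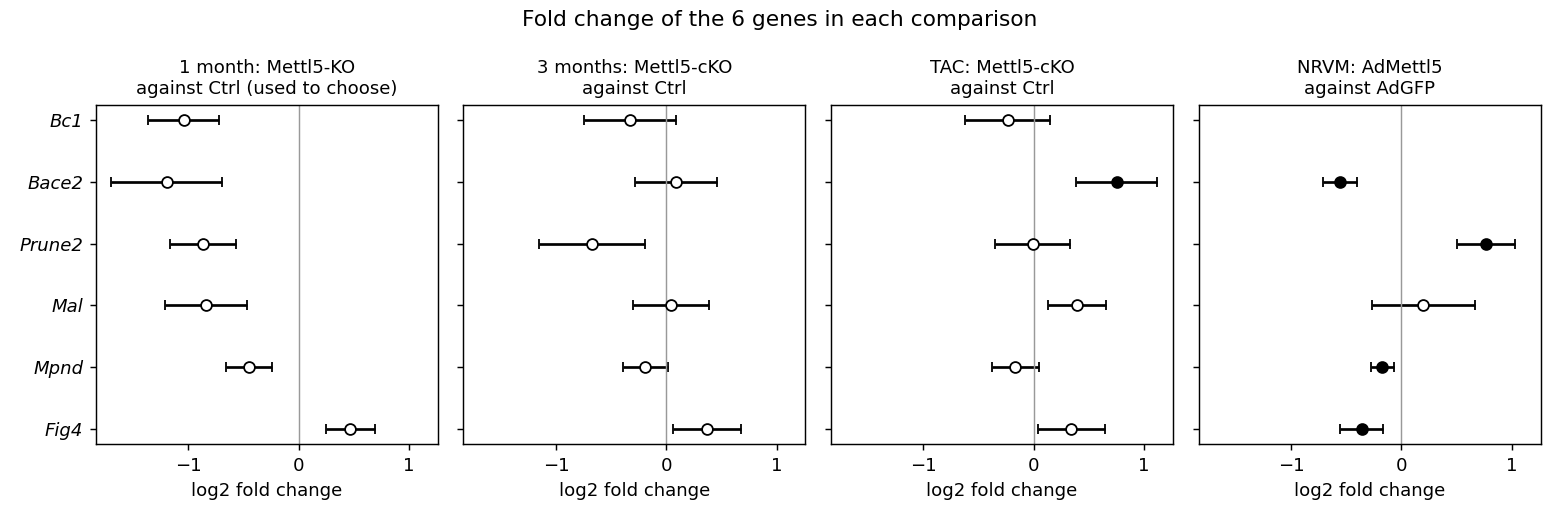
Log2 fold change (horizontal axis) of each gene (vertical axis) in the 4 comparisons, with the 95% interval of edgeR's quasi-likelihood fit as the bar, 4 libraries in each group. Filled points had an adjusted p under 0.05, and the panel of 1 month shows the values used to choose the genes. Filled points occur for Bace2 after TAC and for Bace2, Prune2, Mpnd and Fig4 in NRVM, and Bc1 has no rat row.

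After TAC, Bace2 was the 1 member of 6 that passed the test, and it was higher in the hearts labelled Mettl5-cKO, the opposite of its direction at 1 month. Of the 16340 genes tested, 12.7% passed (6.57% higher and 6.10% lower). Bace2 had 4.91, 4.08, 5.05 and 5.05 CPM in TAC Ctrl hearts and 9.87, 7.34, 9.01 and 5.84 in TAC Mettl5-cKO hearts. Every Mettl5-cKO library lay above every Ctrl library, as was so for 18.6% of all genes in one direction or the other. The mean was 4.77 ± 0.462 CPM in Ctrl and 8.01 ± 1.79 in Mettl5-cKO hearts (SD, n = 4), or log2 fold change 0.75 (SE 0.164, 95% interval 0.382 to 1.119). The adjusted p was 0.0218 (edgeR quasi-likelihood test, Benjamini-Hochberg), and the exact permutation test gave p = 0.0286, the smallest that 4 against 4 libraries allow. The call was lost when Ctrl library 2, 3 or 4 or Mettl5-cKO library 1, 2 or 3 was left out, with adjusted p-values between 0.0503 and 0.0640 (edgeR) and log2 fold changes between 0.64 and 0.79.

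Mal and Fig4 also had more RNA on average in the TAC Mettl5-cKO hearts, without passing the test. Mal had 14.3, 10.8, 9.78 and 10.8 CPM in Ctrl and 16.004, 14.9, 14.2 and 14.9 in Mettl5-cKO hearts, log2 fold change 0.39 (SE 0.118, adjusted p = 0.0566, edgeR). Ctrl library 1 alone reached into the Mettl5-cKO range, and without it the adjusted p was 0.0208 (edgeR). Leaving out any other single library gave adjusted p-values of 0.0521 to 0.139 (edgeR). Fig4 had 28.1, 22.6, 17.6 and 24.5 CPM against 26.1, 29.5, 32.7 and 29.2, log2 fold change 0.34 (SE 0.135, adjusted p = 0.121, edgeR). Its difference had the same sign and nearly the same size as in the table of 3 months.

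Prune2, Bc1 and Mpnd showed no difference past the test after TAC. Prune2 had 128, 116, 127 and 125 CPM in Ctrl and 145, 138, 124 and 83.7 in Mettl5-cKO hearts, so that the Mettl5-cKO libraries lay on both sides of the narrow Ctrl range. Its log2 fold change was -0.011 (95% interval -0.35 to 0.33), and its sign turned under scaling by library size alone (0.15) and without Mettl5-cKO library 4 (0.14). Bc1 had 23.4, 18.8, 27.2 and 21.9 CPM against 26.4, 18.7, 16.4 and 15.9, log2 fold change -0.24 (SE 0.172, adjusted p = 0.385, edgeR). For Bc1 this was -0.42 (adjusted p = 0.0926, edgeR) without Mettl5-cKO library 1, -0.13 without Ctrl library 3 and -0.090 under scaling by library size alone. Mpnd had 25.0, 26.5, 26.7 and 26.5 CPM against 22.4, 22.6, 20.7 and 27.6. For Mpnd, 3 Mettl5-cKO libraries lay below the controls and library 4 above them. The log2 fold change of Mpnd was -0.17 (SE 0.0939, adjusted p = 0.261, edgeR). Without library 4 it was -0.25 with an adjusted p of 0.0304 (edgeR), in a fit that called 3899 genes in all. Leaving out any other single library gave adjusted p-values of 0.268 to 0.490 (edgeR). With library size alone the log2 fold change was -0.030 (adjusted p = 0.819, edgeR).

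Marker genes of other cell types moved with the genotype after TAC. Of the fibroblast list 4 of 5 genes passed and were higher (summed level 637 to 1551 CPM in Mettl5-cKO against 435 to 537 in Ctrl). Of the endothelial list 4 of 5 passed and were lower (397 to 538 against 599 to 704). Of the cardiomyocyte list 2 of 7 passed and were lower (22129 to 29428 against 32262 to 36032). Of the Schwann cell list, whose cells make Mal in nerve, 1 of 4 tested passed and was lower (4.88 to 8.54 against 8.33 to 14.9). The other tested genes of these lists had fold changes in the same direction as those that passed. Of all genes, 6.57% passed as higher and 6.10% as lower. The summed level of the atrial list was 2225 to 6166 against 340 to 548 CPM, with Myl7 at 0. Of its 2 tested genes Nppa (log2 fold change 3.49) passed and Myl4 (0.49, groups apart) did not. The paper counts Nppa among fetal genes often raised in hypertrophy, so this sum is not particular to atrial cells. The macrophage list summed to 129 to 167 against 99.9 to 128 CPM. The neuron list summed to 21.8 to 42.4 against 17.0 to 21.6 CPM, with Th at 0. Of its 6 genes 3 were tested, and Uchl1 (log2 fold change 1.49) passed, while Dbh (-1.23) and Stmn2 (-0.33) did not, so that the list median was -0.33. The part of these cell types in the values of Bace2, Mal and Fig4 was not tested.

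The difference between the genotype effects after TAC and at 3 months was tested itself, over 16 hearts. None of the 6 genes passed (17070 genes tested, 0.00586% passed), and DESeq2 called none of the 6. An unadjusted p under 0.05 (edgeR) was found for 2 of them. The share of all genes at that threshold was not computed. For Bace2 the effect after TAC exceeded that at 3 months by 0.68 on the log2 scale (SE 0.240, 95% interval 0.17 to 1.19, adjusted p = 0.277, edgeR's quasi-likelihood test). Prune2, lower in the mean at 3 months and level after TAC, differed by 0.68 as well (SE 0.288, adjusted p = 0.372, edgeR). Mal differed by 0.36 (SE 0.199), Bc1 by 0.11 (SE 0.268), Mpnd by 0.035 (SE 0.123) and Fig4 by -0.011 (SE 0.201). The interval for Fig4 ran from -0.44 to 0.42, which leaves room for a difference as large as either effect.

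Between TAC Ctrl and 3-month Ctrl hearts, Bc1 was the 1 member that passed the test, where 0.516% of genes did. Its 4 TAC Ctrl libraries, at 18.1 to 26.4 CPM on a scaling common to all 24 hearts, lay above the 10.4 to 13.3 CPM of the 3-month Ctrl libraries. The log2 fold change was 0.90 (SE 0.190, 95% interval 0.50 to 1.30, adjusted p = 0.0470, edgeR). The adjusted p exceeded 0.05 in 14 of the 20 alternative fits, and it reached 0.158 without TAC Ctrl library 3, with log2 fold changes of 0.80 to 0.98 over the fits that left out 1 library. Mal was lower in the mean after TAC, by log2 fold change -0.38 (SE 0.141, adjusted p = 0.184, edgeR). The intervals of the other 4 genes included 0. The operation and the table that holds the libraries cannot be told apart, and these controls are the ones used in the genotype comparisons above.

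Over the 6 heart groups on the common scaling, the members followed different courses, given here as a description since the rule used the 1-month groups. Mal averaged 4.72 ± 0.343 CPM in 1-month Ctrl, 14.4 ± 2.83 in 3-month Ctrl and 11.1 ± 1.91 in TAC Ctrl hearts (SD, n = 4), and the 1-month libraries lay below all the others. The order over the 6 groups ran from 2.64 CPM in 1-month Mettl5-KO to 14.8 in 3-month Mettl5-cKO hearts, and on this scaling the 4 older groups overlapped except that TAC Mettl5-cKO lay just above TAC Ctrl (13.9 to 15.7 against 9.49 to 13.8). Prune2 averaged more in the older hearts too, from 53.6 ± 7.40 CPM in 1-month Ctrl to 112 ± 14.2 and 120 ± 5.53 in the older controls, with 3-month Mettl5-cKO hearts between them at 70.3 ± 24.8. The 1-month hearts form a table of their own, with another knockout and its own controls. Age and table therefore cannot be told apart here. Bc1 stood at 11.5 ± 1.51 and 11.8 ± 1.20 CPM in 1-month and 3-month controls and at 22.1 ± 3.43 after TAC. Fig4 was lowest in 1-month Ctrl at 14.7 ± 1.62 CPM and highest in 3-month Mettl5-cKO hearts at 33.0 ± 3.83. Mpnd ranged between group means from 16.3 ± 0.357 CPM in 1-month Mettl5-KO to 25.3 ± 0.794 in TAC Ctrl hearts. Bace2 was alike in 1-month Ctrl (7.57 ± 1.77 CPM) and TAC Mettl5-cKO hearts (7.83 ± 1.78), while the other 4 groups averaged between 3.29 and 4.61. Per kilobase of merged exon, the level in 3-month Ctrl hearts was 70.3 CPM per kb for Bc1, 10.9 for Mpnd, 7.79 for Fig4, 5.53 for Prune2, 5.17 for Mal and 0.516 for Bace2.

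Within groups the 6 genes did not move as a block. Over the 24 heart libraries, with each log2 CPM taken as its deviation from the group mean, the strongest correlations among the 15 pairs were -0.54 for Bc1 and Fig4, 0.45 for Bc1 and Bace2 and 0.37 for Prune2 and Fig4. The other 12 lay between -0.28 and 0.23. Of 15542 genes compared in the same way, those most like Bc1 were H2-D1 (r = 0.91), B2m (0.91) and H2-Q6 (0.90), which encode chains of MHC class I molecules. Those most like Fig4 were Rnf14 (0.90), Ppm1k (0.88) and Gpbp1l1 (0.87), and those most like Prune2 were Csgalnact2 (0.86), Lama3 (0.84) and Utrn (0.84). Bace2 was nearest to Tubb3 (0.84), Alg14 (0.78) and Gm12222 (0.78), Mpnd to Lpcat1 (0.78), Gabrr2 (0.75) and Cactin (0.74), and Mal to Rsl1d1 (0.75), Kdelr1 (0.74) and Gm18284 (0.73). These are the highest of many correlations over 24 libraries, and they are given without a test. Batches are not given in the sources used here, and the part of cell composition in these correlations was not tested.

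**Figure D3:**
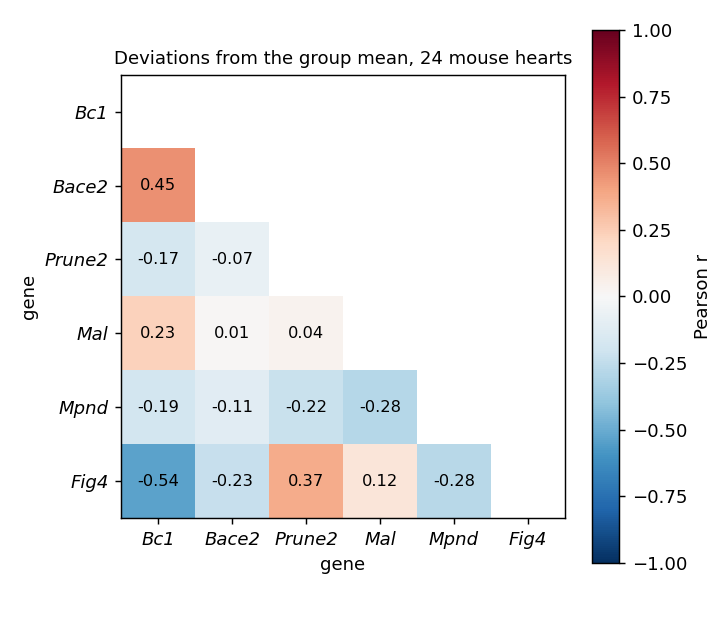
Pearson r of each pair of the 6 genes (axes), over the log2 CPM of 24 heart libraries as deviations from their group mean, on a scale from -1 (blue) to 1 (red). The darkest cells are Bc1 with Fig4 at -0.54 and Bc1 with Bace2 at 0.45.

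In NRVM, where METTL5 was raised instead of removed, 4 of the 5 members listed passed the test, but so did 52.8% of the 15041 genes tested. Prune2 was higher with AdMettl5 (1 of 5 members, against 27.1% of all genes), and Bace2, Mpnd and Fig4 were lower (3 of 5, against 25.7%). The groups of these 4 did not overlap, as for 48.4% of all genes, and the exact permutation test gave p = 0.0286 for each. All 4 changes stayed below 1 on the log2 scale. The median log2 fold change was -0.17 over the 5 members and -0.00218 over all genes.

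Prune2 had 4.74, 6.86, 5.66 and 6.34 CPM with AdGFP and 9.38, 10.1, 11.5 and 9.22 with AdMettl5. The rise of 0.77 on the log2 scale (SE 0.120, adjusted p = 0.000195, edgeR quasi-likelihood test, Benjamini-Hochberg) ran opposite to its lower level in the Mettl5-KO hearts. Fig4 had 16.01, 17.7, 19.4 and 21.3 CPM with AdGFP and 14.4, 14.2, 13.98 and 15.4 with AdMettl5, and fell by 0.36 (SE 0.0886, adjusted p = 0.00458, edgeR), again opposite to its direction at 1 month. Bace2 and Mpnd, in contrast, were lower both in the Mettl5-KO hearts and with added METTL5. Bace2 had 29.5, 28.3, 26.5 and 26.1 CPM with AdGFP and 19.4, 17.1, 20.3 and 18.3 with AdMettl5, log2 fold change -0.56 (SE 0.0692, adjusted p = 3.43e-05, edgeR). Mpnd had 39.6, 38.9, 39.9 and 41.5 CPM against 35.2, 35.2, 34.4 and 36.8, log2 fold change -0.17 (SE 0.0481, adjusted p = 0.00921, edgeR). Mal was scarce, with 1.32 to 1.98 CPM (22 to 34 counts) with AdGFP and 1.51 to 2.36 (23 to 35 counts) with AdMettl5. No difference was detected (log2 fold change 0.20, 95% interval -0.26 to 0.66).

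Scaling by library size alone moved the median of all genes from -0.00218 to 0.133, which left Mpnd at -0.039 (adjusted p 0.609, edgeR) and Fig4 at -0.23 (adjusted p 0.0820, edgeR). The calls of Bace2 and Prune2 held under each alternative tried. All 7 cardiomyocyte markers were lower with AdMettl5 (summed level 7113 to 7826 CPM against 15869 to 18476), as were 3 of the 4 fibroblast markers listed (6915 to 7639 against 8513 to 9011) and all 4 atrial markers (1800 to 2683 against 7949 to 12580). The endothelial sum was higher (39.0 to 46.6 against 26.7 to 29.3 CPM). Of its 4 tested genes Kdr (log2 fold change 0.86) passed, while Egfl7 (0.18), Cdh5 (0.23) and Tie1 (-0.15) did not. None of these lists had a gene at 0 in all libraries. The part of these shifts in the values of the 5 genes was not tested.

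**Figure D4:**
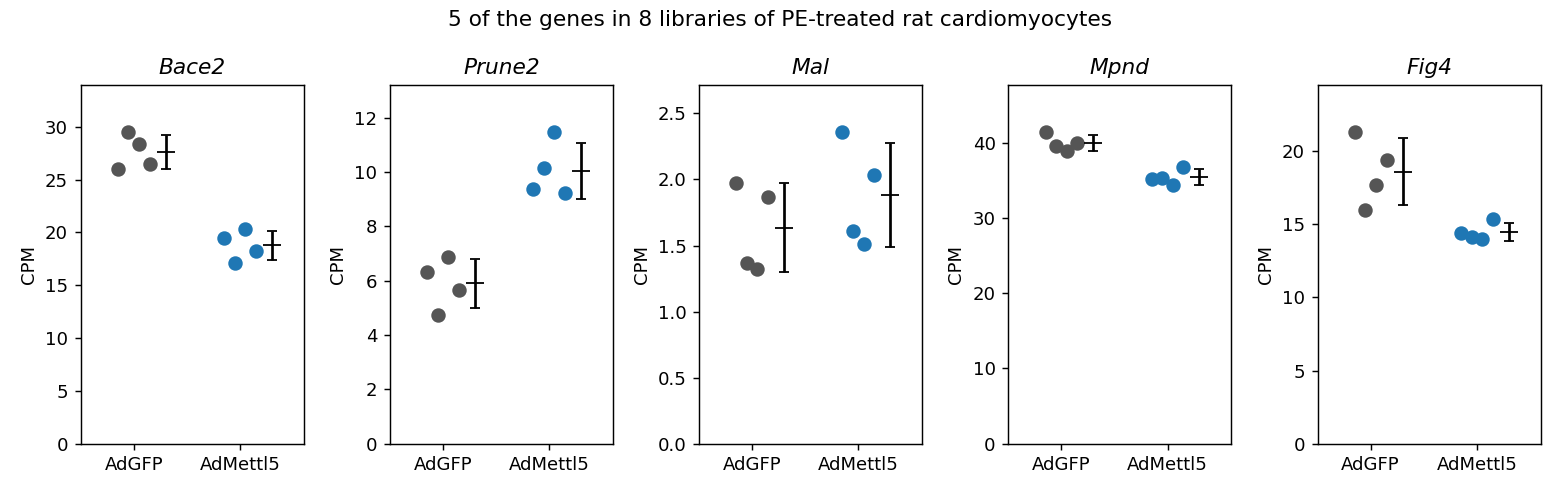
CPM (vertical axis, linear, from 0) of the 5 genes with a rat row in 8 NRVM libraries treated with PE, 4 with AdGFP (grey) and 4 with AdMettl5 (blue). Points are libraries, and the dash and bar are the mean and SD. The groups are apart for Bace2, Prune2, Mpnd and Fig4 and overlap for Mal.

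The genes that work with the members, or share a domain with them, were followed through the same tables. At 1 and 3 months no gene of the 8 lists passed. After TAC, where 12.7% of all genes passed, 3 of the 10 protein partners of BC1 RNA did so, the initiation factors Eif4b (log2 fold change 0.39, adjusted p = 0.0184, edgeR) and Eif4a1 (0.32, 0.0281), which were higher, and Hnrnpa2b1 (-0.34, 0.0345), which was lower. Plp2 (0.64), a MARVEL domain protein like Mal, was the 1 of 11 tested members of its list of 18 to pass. Eif3h (0.28) and Stambp (0.48), which carry MPN domains like Mpnd, were the 2 of 11 in theirs. None of the 13 genes of the secretases and their substrates, of the 16 genes around Fig4, of the 16 of RNA polymerase III and its factors or of the 3 tested genes with BCH or prune domains passed after TAC. List medians after TAC lay between -0.029 and 0.090, against -0.00351 for all genes, apart from the small RNA polymerase III transcripts, of which only Rn7s1 and Rn7s2 were tested (-1.25 and -1.18, adjusted p = 0.152 and 0.176, edgeR).

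In NRVM, the relatives of the members were called in both directions, at shares to be read against the 52.8% of all genes. Among 16 genes around Fig4, 7 were higher and 3 lower. The partners Vac14 (0.23) and Pikfyve (0.30), whose proteins hold FIG4 in its complex and which were picked out after their values were seen, were higher while Fig4 itself was lower. Wipi1 (0.33), Inpp5f (0.44) and Synj1 (0.33) were higher too, and Mtm1 (-0.45) and Mcoln1 (-0.32) lower. Of 12 tested genes of the secretases and their substrates, 2 were higher and 5 lower. Bace1 fell by 0.59, close to the fall of Bace2, as did the γ-secretase subunits Psen2 (-0.36) and Psenen (-0.37), whereas the α-secretase Adam17 (0.43) and App itself (0.25) were higher. Prune1, a relative of Prune2, was higher by 0.24, the 1 of 3 tested in its list.

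Of 11 tested MARVEL domain genes, 3 were higher, Cmtm8 (1.02), Marveld2 (0.52) and Cmtm3 (0.19), and 3 lower, among them Myadm (-0.29) and Marveld1 (-0.25). Stambpl1 rose by 0.32 and Stambp fell by 0.33, the 2 of 10 MPN domain genes that passed. The RNA polymerase III list had 6 higher and 3 lower of 16, with Polr3b (0.31), Brf2 (0.31) and Polr3c (0.29) among the former and Polr3k (-0.33) and Polr3gl (-0.35) among the latter. Of the BC1 RNA partners 4 of 10 were higher, Fmr1 (0.24), Syncrip (0.19), Hnrnpa2b1 (0.29) and Eif4a1 (0.12), in rat cells whose table lists no Bc1.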

How the data were processed

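RNA sequencing of 24 mouse hearts and 8 NRVM cultures was analysed from 4 deposited tables. The authors aligned the reads (HISAT2 2.0.4, GRCm38 and Rnor_6.0) and made an estimated count for each gene with StringTie 2.1.4. The deposited estimated counts are whole numbers, not scaled between libraries, and rounding changed nothing. The submitters' processing notes also name DESeq2 1.4.5. The plan had assumed plain counts. Strandedness is not given in the sources used here, so antisense overlaps cannot be separated. In the tables of 3 months and TAC, and for AdGFP, columns matched a group and no single sample. Nothing says that the libraries of a group are separate animals or cultures, and p-values then measure only the spread between these samples.

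Counts of each table were scaled by TMM, filtered with filterByExpr (minimum count 10, total 15) and fitted with R 4.3.3 and edgeR 4.0.16, using glmQLFit and glmQLFTest, with Benjamini-Hochberg adjustment over all genes tested and calls at 0.05. Library totals are given with the results, and the biological coefficient of variation ran from 0.0675 (NRVM) to 0.221 (1 month). For single genes, mean log2 CPM (prior count 2) was also permuted exactly, two-sided, over the 70 labellings. The 16 hearts of 3 months and TAC were fitted together for the difference of genotype effects and for the controls. Alternatives were DESeq2 1.42.0, its size factors, library size alone, no filter, at least 10 counts in every sample, the replicate block and leaving out each library. No library was a copy of another (lowest chi-square per degree of freedom within a group, 2.16). Positions and the Bc1 sequence come from GENCODE annotation and transcripts of GRCm38.

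The members and the gene lists were chosen with earlier results of these data known. Named genes were the members, Mettl5, up to 5 called genes per family list and comparison by adjusted p, the 3 most correlated genes of each member, and genes overlapping a member. Marker genes, Vac14, Pikfyve, Rn7s1 and Rn7s2 were named after their values were seen.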

Additional observations from a re-analysis of the deposited data

Results flagged for a closer look

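Over 46 groups of 4 libraries checked, 4 had a library far from the other 3, by a rule that chance meets in about 1 in 20 groups. Bc1 in 3-month Mettl5-cKO hearts had its highest library at 14.1 CPM, with the next at 8.43. Bace2 in 1-month Ctrl hearts had its lowest library at 4.66 CPM (next 7.75), and in TAC Ctrl hearts at 4.08 CPM (next 4.91). Mpnd in TAC Ctrl hearts had its lowest library at 25.0 CPM (next 26.5). For Bace2 at 1 month, every Mettl5-KO library lay below every Ctrl library (log2 fold change -1.20), by the values that chose the gene. After TAC, every Mettl5-cKO library lay above every Ctrl library (0.75). The difference between these comparisons was not tested.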

How the results depend on the processing

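The direction of each of the 6 genes at 1 month, of Bc1, Prune2, Mpnd and Fig4 at 3 months, of all but Prune2 after TAC, and of all 5 in NRVM held under every alternative run. Members called changed as follows, and the cause was not tested. With DESeq2 there were 2 after TAC, where 2693 genes were called in all. At 1 month there were 3, with 12 genes called in all. The members were chosen on those same libraries, and nothing is read from that count. With library size alone there were 3 after TAC (Bace2, Mal and Fig4), where 2584 genes were called in all. The median log2 fold change of all genes was then 0.143. The same scaling gave 2 in NRVM, where 8215 genes were called in all, and 0 between the controls. Without a filter there were 0 between the controls. Leaving out 1 library gave 0 to 2 members after TAC and 0 to 1 between the controls. Directions turned in small differences. Prune2 after TAC was 0.00845 with DESeq2, 0.15 with library size alone, 0.00520 without a filter and -0.10 to 0.14 with 1 library left out. With 1 library left out, Mal at 3 months ran from -0.047 to 0.19 and Bace2 from -0.00302 to 0.18. In the difference between genotype effects Fig4 was 0.074 with library size alone and -0.14 to 0.081 with 1 library left out, Bc1 -0.077 to 0.33 and Mpnd -0.064 to 0.090. Between the controls Mpnd was -0.029 with library size alone and -0.015 to 0.048 with 1 library left out.

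All genes called ranged from 0 to 12 at 1 month (1 in the fit reported), 1 to 108 at 3 months (12), 479 to 3899 after TAC (2071), 7089 to 8215 in NRVM (7949), 0 to 679 for the difference of genotype effects (1) and 11 to 519 between the controls (88). With library size alone, 79.7% of calls after TAC and 71.5% in NRVM were higher, against 51.9% and 51.4%. The replicate block at 1 month left the members called at 0 and all genes called at 1. Same-numbered libraries there correlated at 0.24, 0.12, -0.11 and 0.08, and the other pairs at -0.28 to 0.19. So few values cannot show whether the numbers pair libraries. The other tables carry no numbers for a block. Mal in NRVM had 22 to 35 counts a library, and the part of depth in its result was not tested.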
